A study of Homo sapiens with 8 samples.

Results

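Transcripts of 10 mucin and airway secretory genes were examined in A549, an established human lung adenocarcinoma cell line that carries a loss-of-function mutation in KEAP1 and therefore keeps high levels of the transcription factor NRF2, the product of NFE2L2. The 10 genes were MUC1, MUC4, MUC5AC, MUC5B, MUC13, MUC16, SPDEF, AGR2, TFF1 and SLPI. They were chosen by symbol, with earlier results of these data known. All 10 were found among the 60291 gene identifiers of the count tables. Total RNA was sequenced from 8 libraries, each from 250000 A549 cells transfected with Lipofectamine RNAiMAX and harvested after 48 h. In 3 libraries the cells received 5 nmol of siRNA against NFE2L2, with a different duplex in each (NFE2L2 duplex 1, 2 and 3). In 4 libraries they received 5 nmol of a non-targeting siRNA, either control duplex 1 or control duplex 2, with 2 transfections of each (rep1 and rep2), and 1 mock library received the reagent without siRNA. Each NFE2L2 duplex was used in 1 transfection, so the effect of a duplex and that of its transfection cannot be told apart. The p-values measure only the spread between transfections of this cell line, which in the NFE2L2 group includes differences between duplexes. They take the 4 control libraries as independent, although these are 2 transfections of each control duplex. RNA was pooled from all cells of a well, so fewer cells that express a gene and less RNA per cell cannot be told apart. The comparison of the NFE2L2 and control siRNA libraries asks which of these genes depend on NFE2L2 in cells with active NRF2.

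Mucins are large proteins whose serine and threonine rich repeats carry dense O-linked sugars. MUC5AC and MUC5B are secreted gel-forming mucins of the airway, released from goblet and gland cells, whereas MUC1, MUC4, MUC13 and MUC16 span the membrane and coat the cell surface. SPDEF is an ETS family transcription factor that promotes goblet cell differentiation, AGR2 is a protein disulfide isomerase of the endoplasmic reticulum that is needed for mucin folding, TFF1 is a trefoil peptide secreted together with mucins, and SLPI is an inhibitor of neutrophil elastase secreted by airway epithelium.

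Each library held between 35525141 and 41645410 reads counted on genes, which were 60.3% to 65.6% of all entries in the tables. Levels are given below as CPM (reads per 1000000 gene counts after TMM scaling, a correction for differences in library composition) and, where genes are compared with each other, as TPM (reads per kilobase of exon, scaled to 1000000 per library). Silencing was checked first on NFE2L2 itself, which stood at 38.2 ± 12.1 CPM (SD, n = 3) when it was targeted and 111.6 ± 4.34 CPM (SD, n = 4) in the control libraries, and its log2 fold change was −1.55 (edgeR adjusted p = 0.000994). The log2 fold changes of the NRF2 targets NQO1 and GCLM were −2.19 (edgeR adjusted p = 1.945e-05) and −2.52 (edgeR adjusted p = 4.505e-06). Of 6 epithelial identity genes, KRT8, KRT18, CDH1, KRT19 and EPCAM had mean levels of 1857, 3367, 66.7, 57.9 and 6.07 TPM in the control libraries, and ESRP1, an epithelial splicing regulator, had 0 to 4 reads per library. Markers of airway and lung cell types were uneven. Of the goblet cell markers, TFF3 had 0 to 4 reads per library and FOXA3 93 to 277, and MUC5AC, SPDEF and AGR2 are given below. Of the listed club and goblet cell products, CLCA1 had 0 reads and ITLN1 0 to 4, while S100P had 245 to 1691. The club cell genes SCGB3A1 and SCGB3A2 had 0 reads in all 8 libraries and SCGB1A1 had 1 read in 1 library. Of the alveolar markers, SFTPA1 had 0 reads and SFTPA2, SFTPB and SFTPC 0 to 6 per library, SFTPD had 6 to 17, AGER 48 to 77, NAPSA 72 to 128 and ABCA3 1390 to 2834. Of the ciliated cell markers, TEKT1 had 0 reads, and FOXJ1, DNAI1 and RSPH1 had 4 to 33 and DNAH5 93 to 261. Of the basal cell markers, KRT14 had at most 1 read and KRT5 at most 8, NGFR had 13 to 25, KRT15 19 to 149 and TP63 55 to 157. A count of 0 allows up to 3 reads in a library, by counting error only.

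The reference promoters of 6 of the 10 genes were available from RefSeq (GRCh38.p14; 250 bases before to 50 after the transcription start): MUC1, MUC4, MUC13, MUC16, SPDEF and AGR2. They were searched on both strands for TGACNNNGC, the core of the antioxidant response element that NRF2 binds with small MAF proteins, and for TGANTCA, the AP-1 element. The same bases can match both. Of 35116 promoters of the same length, 13.3% held the first and 7.71% the second. Shown here are AGR2 and SPDEF, whose windows held neither, and MUC13 and the first of the MUC16 starts, which each held a match. The capitals mark the AP-1 match in MUC13 (bases 73 to 79) and the antioxidant response element core in MUC16 (bases 229 to 237), and all 4 sequences read 5′ to 3′ on the minus strand.
AGR2, chr7:16804950-16805249: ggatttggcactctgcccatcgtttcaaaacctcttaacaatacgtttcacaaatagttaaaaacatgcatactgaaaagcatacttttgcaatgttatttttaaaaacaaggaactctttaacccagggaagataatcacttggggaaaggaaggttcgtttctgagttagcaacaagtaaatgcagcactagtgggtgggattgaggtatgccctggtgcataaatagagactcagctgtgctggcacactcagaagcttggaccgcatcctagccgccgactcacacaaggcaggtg
SPDEF, chr6:34556280-34556579: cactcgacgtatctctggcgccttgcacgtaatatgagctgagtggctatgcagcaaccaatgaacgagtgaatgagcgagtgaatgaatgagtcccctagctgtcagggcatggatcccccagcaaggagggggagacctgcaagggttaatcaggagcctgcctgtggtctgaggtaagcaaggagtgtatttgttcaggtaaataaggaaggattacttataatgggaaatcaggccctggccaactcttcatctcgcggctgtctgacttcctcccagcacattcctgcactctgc
MUC13, chr3:124934702-124935001: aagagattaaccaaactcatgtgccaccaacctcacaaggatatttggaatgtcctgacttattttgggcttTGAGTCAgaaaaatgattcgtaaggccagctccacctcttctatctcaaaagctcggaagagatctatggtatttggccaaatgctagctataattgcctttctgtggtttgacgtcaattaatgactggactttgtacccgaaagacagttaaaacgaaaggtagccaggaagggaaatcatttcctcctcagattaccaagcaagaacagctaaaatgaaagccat
MUC16, chr19:9065702-9066001: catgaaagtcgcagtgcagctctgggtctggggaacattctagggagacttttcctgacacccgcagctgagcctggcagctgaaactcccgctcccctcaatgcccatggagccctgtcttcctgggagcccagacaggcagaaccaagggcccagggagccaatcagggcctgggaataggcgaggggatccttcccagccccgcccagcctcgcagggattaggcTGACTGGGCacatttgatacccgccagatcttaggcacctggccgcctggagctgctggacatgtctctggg
The other MUC16 start had an AP-1 match (TGAATCA at bases 115 to 121), and the MUC1 and MUC4 windows had no match to either motif. The GC content was 43.7% for AGR2, 52% for SPDEF, 41% for MUC13 and 62% for the MUC16 window printed. A match of letters is a description of the window, and no binding was measured in these libraries.

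Per kilobase of exon, the 10 genes spanned a very wide range in the control libraries, led by the folding enzyme and not by a mucin. AGR2 (ENSG00000106541.7, chr7:16831435-16873057, minus strand, GRCh37) had 339.3 ± 15.9 TPM (SD, n = 4), and only 233 of 19404 coding genes had a higher level. Its reads made up 0.0299% to 0.0537% of the gene counts of a library. SLPI (ENSG00000124107.5, chr20:43880880-43883205, minus strand) followed with 92.6 ± 25.2 TPM, SPDEF (ENSG00000124664.6, chr6:34505579-34524110, minus strand) with 22.8 ± 6.31 TPM, MUC13 (ENSG00000173702.3, chr3:124624289-124672663, minus strand) with 14.1 ± 4.48 TPM and TFF1 (ENSG00000160182.2, chr21:43782391-43786644, minus strand) with 13.04 ± 2.68 TPM. The control ranges of SPDEF and MUC13 overlapped, as did those of MUC13 and TFF1, so their order was not separated from the spread. Of the gel-forming mucins, MUC5B (ENSG00000117983.13, chr11:1244296-1283402, plus strand) had 5.81 ± 0.877 TPM and MUC5AC (ENSG00000215182.6, chr11:1151580-1222364, plus strand) 1.69 ± 0.165 TPM, and both lie in the same direction next to each other on chromosome 11. MUC1 (ENSG00000185499.12, chr1:155158300-155162707, minus strand) had 0.663 ± 0.116 TPM, MUC16 (ENSG00000181143.11, chr19:8959520-9121066, minus strand) 0.0218 ± 0.0116 TPM, and MUC4 (ENSG00000145113.17, chr3:195473636-195538844, minus strand) 0.00386 TPM from 1 read in each control library. The exon lengths came from a later GENCODE release than the counts did, which touches these levels but not the comparisons of a gene with itself. They were 5930 bases for MUC5AC and 18598 for MUC5B, and whether they cover the whole MUC5AC transcript was not analysed.

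**Figure D1:**
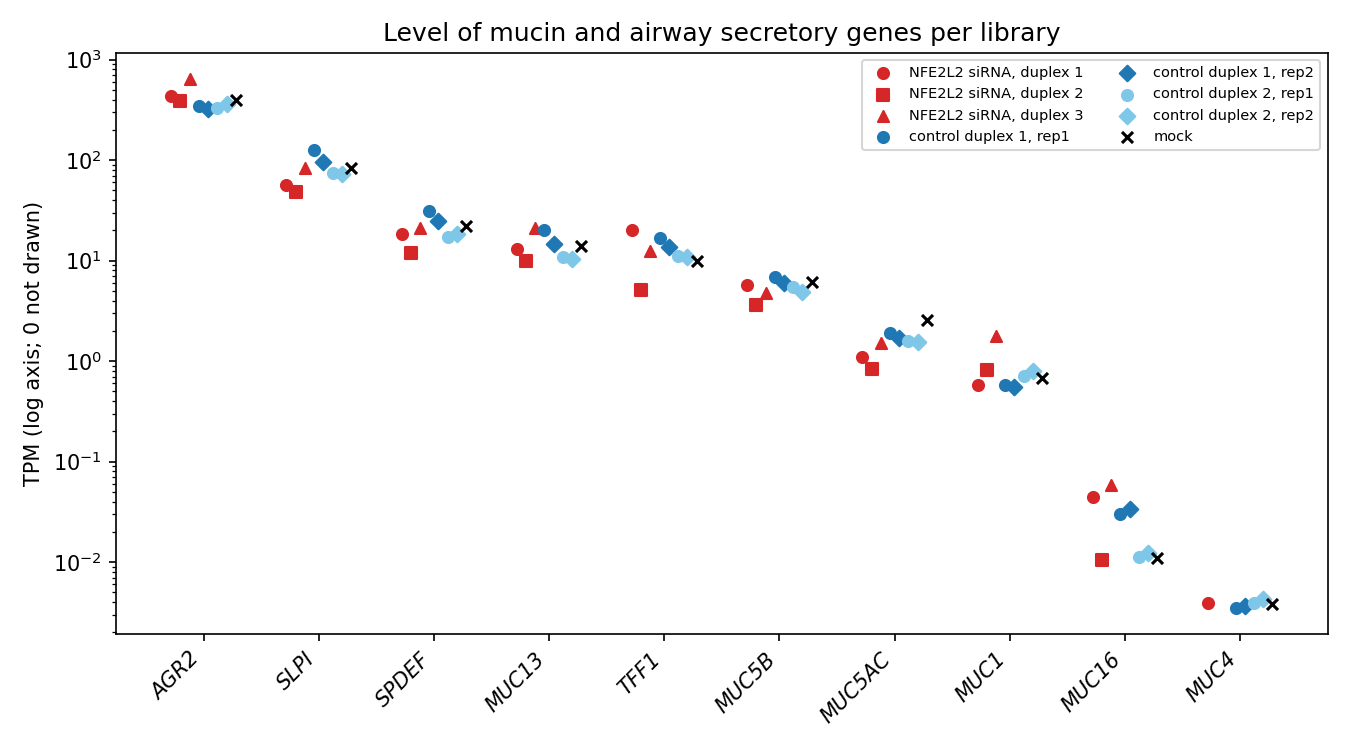
Level of each gene (TPM, log axis) in each of the 8 libraries, 1 point per library, ordered by the mean of the 4 control siRNA libraries. AGR2 lies above every other gene in every library, and MUC4 is drawn only where it had a read.

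MUC1 is uncertain beyond its counting error. Another gene on the same strand, ENSG00000273088, shares 48 bases of its exons, 2% of their length, in the annotation used here, and has 0 reads in all 8 libraries. The authors counted only reads that fall within the exons of 1 gene, so reads of shared exons were left out of MUC1, and how far the exons are shared in the release used for counting was not analysed. MUC5B shares 434 bases, 2.33% of its exons, with MUC5B-AS1 on the opposite strand, and the counting used strand.

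The gel-forming mucins both had lower mean levels with NFE2L2 siRNA, and neither passed the threshold. MUC5AC had 2.21, 1.63 and 2.70 CPM with NFE2L2 duplex 1, 2 and 3, 4.16 and 3.50 CPM with control duplex 1 (rep1, rep2), 3.11 and 2.80 CPM with control duplex 2, and 4.63 CPM in the mock library. All 3 NFE2L2 siRNA values were under all 4 control values, the gap being narrow between NFE2L2 duplex 3 and the lower library of control duplex 2. The log2 fold change was −0.64 (standard error 0.212, 95% interval −1.11 to −0.16, edgeR adjusted p = 0.0971). The two-sided exact permutation p over the 35 divisions of the 7 libraries was 0.0571, the smallest that the form of the test used can return. MUC5B had 35.8, 22.2 and 26.3 CPM with the NFE2L2 duplexes, 47.1 and 38.1 CPM with control duplex 1, 33.7 and 27.3 CPM with control duplex 2, and 34.9 CPM in the mock library. Its groups overlapped, since NFE2L2 duplex 1 exceeded both libraries of control duplex 2. The log2 fold change of MUC5B was −0.38 (95% interval −0.84 to 0.08, edgeR adjusted p = 0.280). MUC5AC rests on few reads, 64 to 185 per library, against 871 to 1754 for MUC5B.

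Among the membrane mucins no difference between the groups was resolved. MUC13 had 15.4, 11.4 and 22.1 CPM with the NFE2L2 duplexes, 25.7 and 17.9 CPM with control duplex 1, 12.6 and 11.1 CPM with control duplex 2, and 15.1 CPM in the mock library. Its highest libraries were control duplex 1 rep1 and NFE2L2 duplex 3, and the groups overlapped fully, with a log2 fold change of −0.04 and a 95% interval of −0.71 to 0.63 (edgeR adjusted p = 0.952). MUC1 had 0.475, 0.636 and 1.27 CPM with the NFE2L2 duplexes, 0.457 to 0.582 CPM in the 4 control libraries and 0.501 CPM in the mock library. Only NFE2L2 duplex 2 and 3 exceeded the controls, and the log2 fold change of 0.60 (95% interval −0.16 to 1.36, edgeR adjusted p = 0.307) became 0.08 without NFE2L2 duplex 3. MUC16, the very long mucin that carries the CA125 antigen, had 24, 6 and 33 reads with the NFE2L2 duplexes, 18 and 19 with control duplex 1, 6 and 6 with control duplex 2, and 6 in the mock library. These reads gave a log2 fold change of 0.68 with a 95% interval of −0.58 to 1.94 (edgeR adjusted p = 0.496), and at this depth no difference was detectable. MUC4 had at most 1 read in any library and 0 with NFE2L2 duplex 2 and 3. It was not tested, and no fold is given because both groups are under the floor of 3 reads.

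AGR2 was the only gene with every NFE2L2 siRNA library above every control library. It had 410.6, 353.7 and 525.3 CPM with NFE2L2 duplex 1, 2 and 3, 347.0 and 310.4 CPM with control duplex 1, 298.9 and 301.2 CPM with control duplex 2, and 336.4 CPM in the mock library. NFE2L2 duplex 3 stood apart at the top, while NFE2L2 duplex 2 was close to control duplex 1 rep1. The log2 fold change was 0.45, or 1.37-fold (standard error 0.131, 95% interval 0.16 to 0.75, edgeR adjusted p = 0.0651, two-sided exact permutation p = 0.0571), which missed the threshold of 0.01. The value was 0.28 without NFE2L2 duplex 3 (edgeR adjusted p = 0.171) and 0.56 without NFE2L2 duplex 2 (edgeR adjusted p = 0.0154). The control libraries of AGR2 were the most even of the 9 genes tested, with a coefficient of variation of 7.09%, against 20.3% over the NFE2L2 duplexes.

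SLPI and SPDEF were, like the gel-forming mucins, lowest with NFE2L2 duplex 2 and, of the 7 siRNA libraries, highest in control duplex 1 rep1. SLPI had 11.3, 9.36 and 15.1 CPM with the NFE2L2 duplexes, 27.6 and 19.8 CPM with control duplex 1, 14.6 and 13.2 CPM with control duplex 2, and 15.3 CPM in the mock library. NFE2L2 duplex 3 exceeded both libraries of control duplex 2, so the groups overlapped, and the log2 fold change of −0.66 (standard error 0.260, 95% interval −1.24 to −0.08) had an edgeR adjusted p of 0.152. SPDEF had 11.97, 7.45 and 12.2 CPM with the NFE2L2 duplexes, 21.5 and 16.4 CPM with control duplex 1, 10.7 and 10.8 CPM with control duplex 2, and 12.9 CPM in the mock library. NFE2L2 duplex 1 and 3 lay between the pair of control duplexes, and the log2 fold change was −0.49 (95% interval −1.10 to 0.11, edgeR adjusted p = 0.291). TFF1 had 3.36, 0.814 and 1.86 CPM with the NFE2L2 duplexes, 1.61 to 2.98 CPM in the control libraries and 1.502 CPM in the mock library. The NFE2L2 duplexes alone therefore spanned a 4.12-fold range of TFF1, wider than the controls, and the log2 fold change was −0.13 (95% interval −1.02 to 0.77, edgeR adjusted p = 0.881).

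Of the 9 genes tested, 0 passed an adjusted p of 0.01 in edgeR, where 2.76% of the 17811 genes tested did (491 genes, 243 lower and 248 higher). At an unadjusted p under 0.05 there were 3, MUC5AC, AGR2 and SLPI, and 4457 among all genes. DESeq2 and limma-voom also called 0 of the 9 at 0.01. DESeq2 placed MUC5AC and AGR2 under 0.05, with adjusted p-values of 0.0448 and 0.0320. Groups that did not overlap were found for 2 of the 9, against 23.3% of all genes tested. The median log2 fold change was −0.126 over the 9 genes and 0.008 over all genes, with 6 values below 0 and 3 above. In simulated counts at this depth the same test recovered 64% of genes changed 2-fold and 100% of those changed 4-fold, among genes with a mean of at least 20 reads. A missed threshold here does not show that a gene was unaffected, and the intervals above give the sizes that remain possible. Before adjustment, the intervals of MUC5AC, SLPI and AGR2 exclude 0, and those of the other 6 include it.

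**Figure D2:**
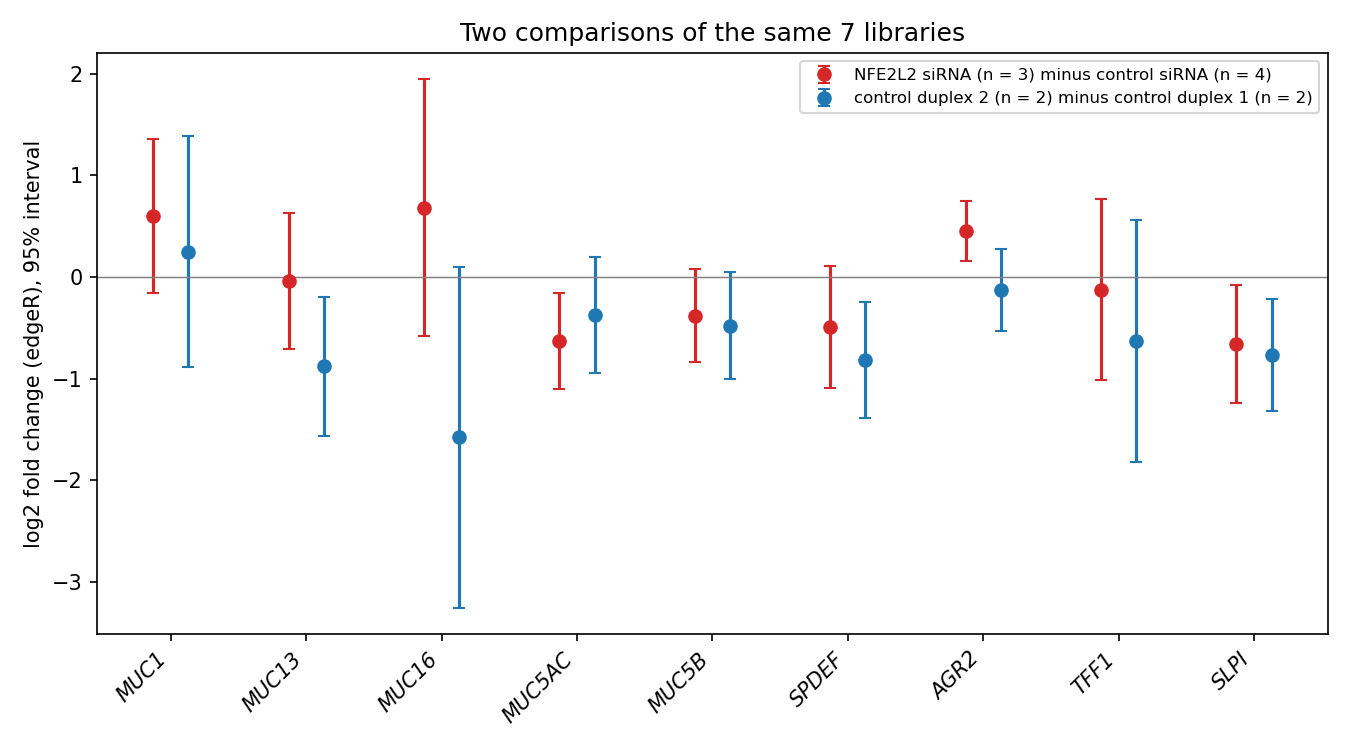
Log2 fold change of the 9 tested genes with 95% interval (edgeR) for NFE2L2 siRNA (n = 3) minus control siRNA (n = 4) and for control duplex 2 (n = 2) minus control duplex 1 (n = 2), which share the control libraries. The intervals of MUC5AC, SLPI and AGR2 exclude 0 for NFE2L2 siRNA, and those of MUC13, SPDEF and SLPI exclude 0 between the control duplexes, all without adjustment.

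For 6 of the 9 genes, the log2 difference between the control duplexes was larger in size than the NFE2L2 siRNA value. These were MUC5B, MUC13, MUC16, SPDEF, TFF1 and SLPI, and both values share the control libraries. The share of all genes for which this held was not counted, so it is not shown to be particular to these genes. Control duplex 2 minus control duplex 1 gave a log2 fold change of −0.82 for SPDEF (standard error 0.248, 95% interval −1.39 to −0.25, edgeR adjusted p = 0.474), −0.77 for SLPI (standard error 0.242, 95% interval −1.32 to −0.22, edgeR adjusted p = 0.502) and −0.88 for MUC13 (standard error 0.299, 95% interval −1.57 to −0.19, edgeR adjusted p = 0.546). None of the 9 passed in this comparison of 2 against 2 libraries in the fit over 7 libraries, and 0% of all genes did, while 1293 genes, SPDEF, SLPI and MUC13 among them, had an unadjusted p under 0.05. DESeq2 called 70 genes and none of the 9. In an edgeR fit of the 4 control libraries alone, 568 genes passed, SPDEF (adjusted p = 0.00330), MUC13 (adjusted p = 0.00610) and SLPI (adjusted p = 0.00762) among them. That fit differs in its libraries, its residual degrees of freedom and its estimate of the spread, and the cause of the difference was not tested. The median over the 9 genes was −0.630 and over all genes 0.002.

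The choice of control duplex sets the size of the NFE2L2 siRNA values accordingly. Against control duplex 1 alone, the log2 fold change was −1.002 for SLPI (edgeR adjusted p = 0.0745), −0.85 for SPDEF (edgeR adjusted p = 0.121) and −0.82 for MUC5AC (edgeR adjusted p = 0.144). Against control duplex 2 alone, it was −0.22 for SLPI (edgeR adjusted p = 0.683), −0.03 for SPDEF (edgeR adjusted p = 0.973) and −0.44 for MUC5AC (edgeR adjusted p = 0.476). For AGR2 the values were 0.38 and 0.52, so its direction was shared. MUC13 went from −0.43 to 0.46 and TFF1 from −0.42 to 0.22, the 2 genes whose sign depended on the control duplex. Lower levels with NFE2L2 siRNA were found for 6 genes against control duplex 1 and for 4 against control duplex 2.

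**Figure D3:**
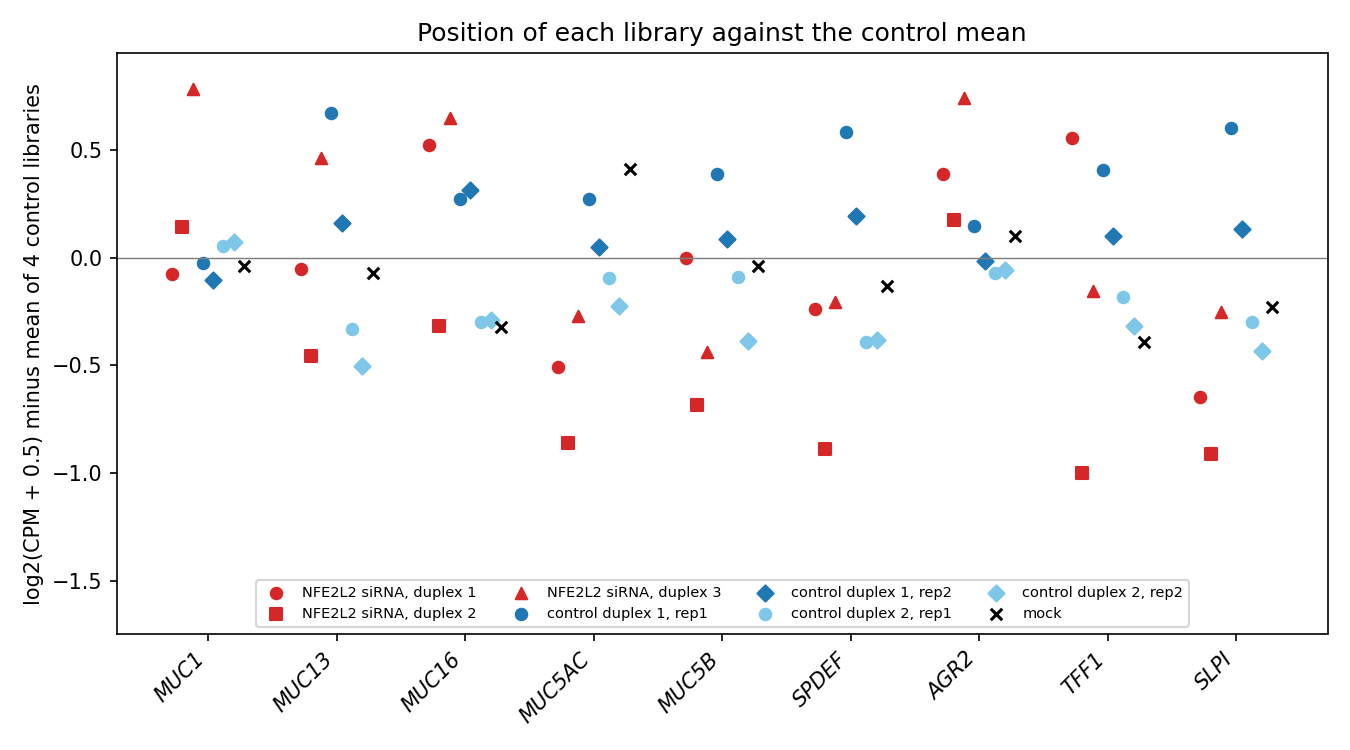
Position of each library, as log2(CPM + 0.5) minus the mean of the 4 control libraries, for the 9 tested genes. Control duplex 1 (dark blue) lies above control duplex 2 (light blue) for 8 of the 9 genes, and NFE2L2 duplex 2 (red squares) is the lowest NFE2L2 duplex for 8 of them.

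The library order recurred over most of the 9 genes, which was seen in the values and then counted. Both libraries of control duplex 1 lay above both of control duplex 2 for 8 of the 9, MUC1 being the exception, and this held for 28.2% of all genes tested. NFE2L2 duplex 2 gave the lowest level of the NFE2L2 duplexes for 8 of the 9, MUC1 being again the exception, against 34.4% of all genes. NFE2L2 duplex 3 gave the highest level for 7 of the 9, against 31.4% of all genes. TFF1 and MUC5B were highest with NFE2L2 duplex 1. The level with NFE2L2 duplex 3 over that with NFE2L2 duplex 2 was 1.49 for AGR2, 1.61 for SLPI, 1.64 for SPDEF, 1.93 for MUC13 and 2.00 for MUC1. These libraries also differed in residual NFE2L2, which had 1178, 2044 and 1262 reads with NFE2L2 duplex 1, 2 and 3. The NFE2L2 duplex that left most NFE2L2 was therefore the one with the lowest level for 8 of the 9 genes. These included SPDEF, SLPI, MUC5AC, MUC5B, MUC13 and TFF1, whose log2 fold changes with NFE2L2 siRNA were below 0. AGR2 and MUC16, whose log2 fold changes were above 0, were also among them. The part of residual NFE2L2 in these levels was not tested.

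Across the 8 libraries, SPDEF and SLPI followed each other closely, with a Pearson r of 0.947 on log2(CPM + 0.5), and 13 of the 13782 genes compared were closer to SPDEF than SLPI was. MUC5B had an r of 0.890 with SPDEF and 0.805 with SLPI, MUC13 one of 0.817 with SPDEF, and MUC5AC one of 0.802 with SLPI. AGR2 did not follow them, with an r of −0.030 with SPDEF, −0.146 with SLPI and −0.291 with MUC5AC, and 0.497 with MUC13. These points share libraries, transfections and scaling, and 8 libraries in 4 kinds are few, so the values are a description. The genes whose pattern was closest to SPDEF were ALDH2 (r = 0.985), SERPINB1 (r = 0.982) and ETFB (r = 0.977). For SLPI they were NEB (r = 0.991), THRA (r = 0.980) and NHERF1 (r = 0.970), and for AGR2 they were EBF4 (r = 0.996), MXD4 (r = 0.993) and TCIRG1 (r = 0.985). MUC5B was closest to ABCA2 (r = 0.977), HSD17B12 (r = 0.963) and TFRC (r = 0.960), and MUC5AC to ARHGAP22 (r = 0.985), DCAF17 (r = 0.983) and ZNF146 (r = 0.982). MUC13 was closest to FAM131C (r = 0.988), DMTN (r = 0.985) and TSPAN6 (r = 0.960), and TFF1 to RDH11 (r = 0.977), SLC25A36 (r = 0.966) and C5orf15 (r = 0.964).

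Genes that act around the mucins were examined as lists. The counts given for each list are to be read beside those over all 17811 genes tested. Of these, 4457 had an unadjusted p under 0.05 in edgeR, 491 passed in edgeR and 1319 were called by DESeq2. Groups did not overlap for 23.3% of them. Of 14 other mucin genes, 5 could be tested, 4 had 0 reads in all 8 libraries, and 0 passed (edgeR; 2 at an unadjusted p under 0.05, and 0 with DESeq2). The membrane mucin MUC12 ranged from 40 to 86 reads over the libraries (log2 fold change −0.17) and MUC20 from 5 to 15 reads (log2 fold change −0.20). The 2 at an unadjusted p under 0.05 had groups that did not overlap: OVGP1, an oviduct glycoprotein, had 70 to 93 reads with the NFE2L2 duplexes and 42 to 52 in the control libraries, a log2 fold change of 0.65 (edgeR adjusted p = 0.0461), and MUC3A, a membrane mucin named after its values were seen, had 8, 7 and 27 reads against 3 to 6, a log2 fold change of 1.43 (edgeR unadjusted p = 0.0218). Of 7 relatives of the small secreted members, 3 could be tested and 0 passed in edgeR (3 at an unadjusted p under 0.05, and 1 with DESeq2). AGR3, the neighbour and closest relative of AGR2, had 15, 7 and 25 reads with the NFE2L2 duplexes and 2 to 4 reads in each of the other 5 libraries, a log2 fold change of 2.24 (edgeR adjusted p = 0.0241). PI3 encodes elafin, an elastase inhibitor of the same family as SLPI. It had 6, 6 and 7 reads against 13 to 23 in the control libraries, a log2 fold change of −1.41 (edgeR adjusted p = 0.0363). Of the siRNA libraries, MUC3A reached the 10 reads needed for testing only with NFE2L2 duplex 3. AGR3 did so only with NFE2L2 duplex 1 and 3, and PI3 only in the control libraries. These genes entered the test only through the group where they were high, so their differences are in part set by the filter.

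In the list of 28 genes drawn up for the O-linked sugars of mucins, 24 were testable, 2 rose and 0 fell (edgeR; 10 at an unadjusted p under 0.05, and 7 called by DESeq2). Of the pair that rose, GCNT1 builds O-linked sugars and FUT8 does not. GCNT1, which starts core 2 branches, rose from 4.13 ± 0.495 CPM (SD, n = 4) to 7.92 ± 0.991 CPM (SD, n = 3), a log2 fold change of 0.94 (edgeR adjusted p = 0.00487). FUT8, which adds core fucose to N-linked sugars, rose from 62.7 ± 3.27 to 98.7 ± 6.13 CPM, a log2 fold change of 0.66 (edgeR adjusted p = 0.00227). GCNT3, the mucin-type core 2 and core 4 enzyme and among the most abundant of the list, had 138.4 ± 15.2 CPM against 198.3 ± 8.04 CPM in the controls, a log2 fold change of −0.52 (edgeR adjusted p = 0.0118). GALNT1, a transferase that starts O-linked chains, had 3552 reads with NFE2L2 duplex 2 against 8789 to 14224 in the other 7 libraries, so its mean and spread rest on that duplex. The list's median log2 fold change was 0.237.

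**Figure D4:**
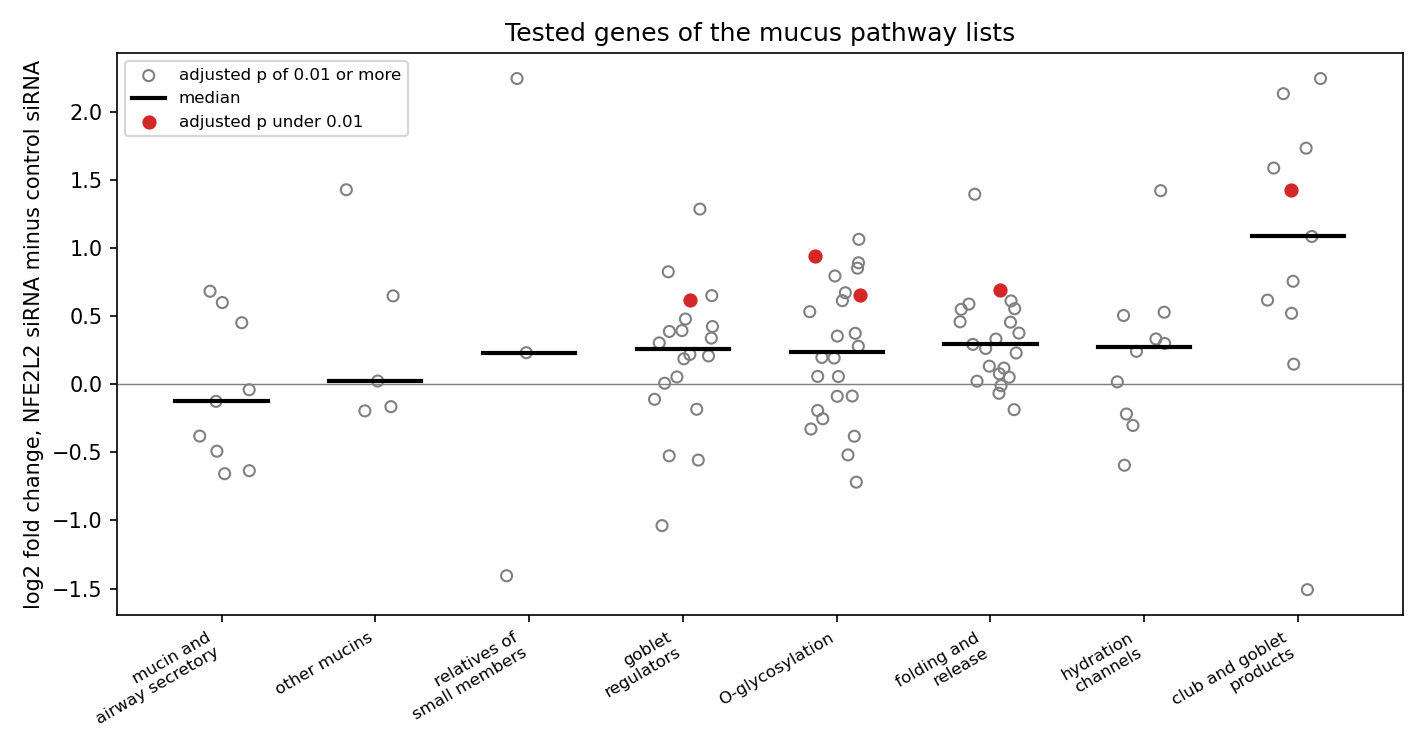
Log2 fold change, NFE2L2 siRNA minus control siRNA, of each tested gene in 8 lists, 1 point per gene, with the list median as a bar and genes past an adjusted p of 0.01 filled red. No mucin or airway secretory gene is filled, and the red points of the other lists all lie above 0.

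Of 22 regulators of goblet and airway differentiation, 20 were tested and 1 passed in edgeR, STAT3, the transcription factor downstream of interleukin-6 family cytokines, which rose (11 at an unadjusted p under 0.05, and 4 called by DESeq2). STAT3 had 406.1 ± 33.97 CPM after silencing and 264.6 ± 22.7 CPM in the controls, a log2 fold change of 0.62 (edgeR adjusted p = 0.00577). FOXA3, a forkhead factor of goblet cells, had 5.54 ± 0.962 CPM against 3.13 ± 0.723 CPM, a log2 fold change of 0.83 with no overlap of the groups (edgeR adjusted p = 0.0341). HNF4A and SOX2, named here after their values were seen, also had groups that did not overlap: HNF4A, a nuclear receptor of endoderm-derived epithelia, had a log2 fold change of −1.04 (edgeR adjusted p = 0.0456), and SOX2, a factor of airway progenitors, 1.29 (edgeR adjusted p = 0.0186). Groups that did not overlap were found for 8 of the 20 tested regulators, against 23.3% of all genes tested. The abundant factors ELF3 and XBP1 had values of 0.39 and 0.19 with overlapping groups. The list's median was 0.260.

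Of 24 genes of mucin folding and granule release, 21 were tested and SYTL2, a synaptotagmin-like partner of RAB27, rose by 0.69 on the log2 scale (edgeR adjusted p = 0.00988). It was the 1 gene past the threshold in edgeR, with 10 at an unadjusted p under 0.05 and 7 called by DESeq2. The chaperones and disulfide isomerases that share the endoplasmic reticulum with AGR2 stood at 0.29 for CALR, −0.07 for CANX and 0.02 for PDIA6. Of 16 channels and transporters that hydrate mucus, 10 were tested and 0 passed (edgeR; 3 at an unadjusted p under 0.05, and 0 with DESeq2). Among the most abundant were SLC12A2, the basolateral chloride importer, at a log2 fold change of 0.50 (edgeR unadjusted p = 0.0228), and NHERF1 (SLC9A3R1), the scaffold that binds the chloride channel CFTR, at −0.60 (edgeR unadjusted p = 0.0351). NHERF1 had 941, 1091 and 1635 reads with the NFE2L2 duplexes, 2433 and 1965 with control duplex 1 and 1262 and 1228 with control duplex 2, highest with control duplex 1 as SLPI was. The medians of these lists were 0.292 and 0.270.

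Of 24 products of club and goblet cells, 11 were tested and 1 rose (edgeR; 8 at an unadjusted p under 0.05, and 4 called by DESeq2). CEACAM5, a membrane-anchored adhesion molecule, rose from 0.685 ± 0.126 to 1.84 ± 0.477 CPM, a log2 fold change of 1.43 (edgeR adjusted p = 0.00691). S100P, a calcium-binding protein, had 12.2 ± 5.23 CPM after silencing and 34.8 ± 4.26 CPM in the controls, a log2 fold change of −1.51 just short of the threshold (edgeR adjusted p = 0.0102). CEACAM6, a surface relative of CEACAM5, had 769, 271 and 1119 reads with the NFE2L2 duplexes and 204 to 452 in the control libraries, again lowest with NFE2L2 duplex 2 of the NFE2L2 duplexes and higher with control duplex 1 than with control duplex 2. The list's median was 1.084, over genes that include AGR3, PIGR and DMBT1, with log2 fold changes of 2.24, 2.13 and 1.73. Of the siRNA libraries, AGR3, PIGR and DMBT1 reached the reads needed for testing only in libraries with NFE2L2 siRNA. The median and the count at an unadjusted p under 0.05 are therefore in part set by the filter. The secretoglobins that define club cells were near 0 reads as given above.

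Markers of other lung cells were set beside these values. Of 4 tested alveolar genes 1 rose, the lipid transporter ABCA3, by 0.66 on the log2 scale (edgeR adjusted p = 0.00274), while 0 of 4 ciliated, 0 of 3 basal and 0 of 5 epithelial identity genes passed (edgeR; 0, 0 and 3 at an unadjusted p under 0.05, and 0, 0 and 2 with DESeq2). Of 19 tested genes beside the 10 loci in the genome, 0 passed (edgeR; 7 at an unadjusted p under 0.05, and 2 with DESeq2), with a median of 0.193. SYTL2 missed the threshold in limma-voom (adjusted p = 0.0105). None of the 6 genes of these lists that rose kept the threshold in all 7 omissions of a single library. GCNT1, SYTL2 and CEACAM5 kept it in 1 of the 7, STAT3 and ABCA3 in 2, and FUT8 in 4. The largest adjusted p then was 0.0263 for STAT3 and GCNT1, 0.0148 for FUT8, 0.0465 for SYTL2, 0.0274 for CEACAM5 and 0.0172 for ABCA3, reached without control duplex 2 rep2 for STAT3, without control duplex 2 rep1 for CEACAM5 and without control duplex 1 rep2 for the other 4.

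In the mock library, 6 of the 9 genes lay within the range of the 4 control libraries. MUC16 lay just below it at 0.150 CPM, from the same 6 reads that each control duplex 2 library had, TFF1 lay below it at 1.502 CPM, and MUC5AC lay above it at 4.63 CPM. The mock value has no replicate, so no test was made.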

How the data were processed

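Strand-specific total RNA libraries, depleted of ribosomal RNA, were prepared from A549 cells. Per the labels and methods, the authors aligned reads to hg19 (GRCh37) with HISAT 0.1.6 and deposited counts, the reads that HTSeq 0.6.0 assigned by strand to the exons of 1 GENCODE v19 gene, without normalization. Classes of reads without a gene do not enter the gene totals (35525141 to 41645410 per library). Depth and the number of transfections limit precision.

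Libraries were grouped by their labels. A gene was tested when any of the 7 siRNA libraries held 10 reads of it. Tests used edgeR 4.0.16 (R 4.3.3) with TMM factors of 0.957 to 1.02, a prior count of 0.125 and two-sided quasi-likelihood F tests, with Benjamini-Hochberg adjustment over 17811 genes and a threshold of 0.01, in a fit of 2 groups, or of 3 for the control duplexes. A standard error is the size of the log2 fold change divided by the root of F, and 95% intervals are unadjusted. Exact permutation tests used CPM. TPM and positions used GENCODE v44 mapped to GRCh37, which holds 55538 of the identifiers. Likeness was Pearson r for genes of at least 1 CPM. Alternatives were DESeq2 1.42.0, limma-voom (limma 3.58.1), other scaling, filters and control sets, a replicate block and the omission of each library. The test was tested on simulated data (200 changed genes, 7 false calls, no duplex effect).

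The members, lists and comparisons were chosen with earlier results of these data known. Genes named are the 10 members, list genes past the threshold, up to 3 of highest mean CPM per list, markers, silencing checks and the 3 closest patterns per member, not all of them in the text. FOXA3 and TFF3 count as goblet cell markers, and HNF4A, SOX2, MUC3A, PIGR, DMBT1, CLCA1 and ITLN1 were added after their values were seen. Of 201 list entries 197 were found by symbol; MARCKS, FCGBP, MSMB and CCDC39 were not analysed here.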

Additional observations from a re-analysis of the deposited data

Results flagged for a closer look

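MUC5AC, the gel-forming airway mucin, was at 4.63 CPM in the mock library, above the 2.80 to 4.16 CPM of the 4 control siRNA libraries, and 1.37 times their mean. It was picked out because the mock library is in neither of the fits that the report tests with and its value stands above the controls. The mock library is 1 transfection without siRNA, so the value has no replicate check, and the difference was not tested. In the 9 tested genes and NFE2L2, no control library lay apart from the other 3 by Dixon's criterion, where chance would pick out about 0.5.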

How the results depend on the processing

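None of the 9 tested genes had an adjusted p under 0.01 for NFE2L2 siRNA in any of the 20 alternatives run for each. With the control libraries summed per duplex, the edgeR adjusted p was 0.326 for AGR2 and 0.346 for MUC5AC. AGR2 stayed above 0 in all 20 (0.28 to 0.56) and MUC5AC below 0 in all 20 (−0.82 to −0.44, adjusted p 0.0448 to 0.476), as did MUC5B, SPDEF and SLPI below 0, and MUC1 and MUC16 above 0. MUC13 turned to 0.46 against control duplex 2 only, 0.025 with control duplex as a term and 0.003 with library size alone, and ranged from −0.33 to 0.24 with 1 library left out. TFF1 turned to 0.22 against control duplex 2 only and ranged from −0.70 to 0.24 with 1 library left out. The number of genes past 0.01 in all genes was 491, and became 1319 with DESeq2, 120 with control duplex 1 only, 59 with control duplex 2 only, 78 with control libraries summed per duplex, 772 with the mock library added to the controls, 1019 with no filter and 1456 at a threshold of 0.05. With each library left out in turn it ranged from 163 to 915: 915 without NFE2L2 duplex 2, 238 without NFE2L2 duplex 3, 277 and 163 without control duplex 1 rep1 and rep2, 198 and 221 without control duplex 2 rep1 and rep2. Between the control duplexes it was 0, and became 568 in the 4 control libraries alone and 70 with DESeq2; leaving out single control libraries gave 0 each time, the lone library of a duplex being assumed to vary like the other groups. The cause was not tested. The control duplexes share replicate numbers. With a replicate block 266 genes passed for NFE2L2 siRNA and 0 between control duplexes, with no member called, and STAT3, GCNT1, SYTL2 and CEACAM5 had adjusted p-values of 0.0130 to 0.0252; deviations of same-numbered control libraries correlated at 0.171 over 17811 genes in 2 pairs, too few to show that the numbers pair the samples. Depth limits MUC16, MUC1 and MUC4 most.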
